A study of Rattus norvegicus with 10 samples.

Results

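The imprinted Dlk1-Dio3 domain of rat chromosome 6 holds one of the largest groups of miRNA genes in the genome of placental mammals. Its miRNAs were taken here from a list of 34 names, any arm and no star form, with detected and undetected members both counted. Of these names 28 had a probe on the array, and since miR-369 and miR-409 had a probe for each arm, 30 of the 237 rat miRNA probes (1107 probes in all) were members. The names miR-380, miR-410, miR-411, miR-434, miR-495 and miR-496 had no rat probe in the files used here. Most members read near background in these vessels, and none of the 5 bright enough for the main test passed its threshold between shunt and control legs.

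MiRNA levels were measured in collateral vessels, natural bypasses that widen after a main artery is blocked, of 5 male Spraque-Dawley rats. In 1 leg of each rat the femoral artery was ligated and an arteriovenous shunt was made to raise fluid shear stress in the collateral arteries (shunt, n = 5). The other leg of the same rat had a sham operation (control, n = 5). Every shunt leg had both the ligation and the shunt, so the effects of these cannot be told apart, and the labels give no age and no time after surgery. The arrays had 2 colours, and each RNA was hybridised to 2 of the 10, once in the dye AF665 and once in AF546, which gives 10 channels per group. Of the arrays, 4 held control RNA only, 4 shunt RNA only and 2 held both groups.

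In this domain the genes for proteins, Dlk1, Rtl1 and Dio3, are expressed from the paternal chromosome, while the noncoding RNA genes, Meg3 among them, and the miRNAs are expressed from the maternal one. The miRNAs are cut from long maternal transcripts, and in rodents they are abundant in embryo, placenta and brain and low in most adult tissues. Interest in them for collateral growth comes from mice: blocking miR-329, miR-487b, miR-494 or miR-495 after femoral artery ligation improved the recovery of blood flow.

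Mature sequences in RefSeq (GRCr8) were found for 26 of the 30 probes. Where an array name gave no arm, the arm that the name usually stood for was taken from general knowledge of miRNA naming, because the probe sequences were not used here. All 26 lie on the plus strand of chromosome 6 in 2 stretches between Dlk1 (chr6:134192491-134199779) and Dio3 (chr6:135107072-135108933). The first stretch lies downstream of Meg3 (chr6:134274056-134306249), holds 6 members within 39.8 kb and overlaps Rtl1 (chr6:134325231-134335780). The second begins 188.9 kb further on and holds 20 members within 36.1 kb. The 7 sequences below are those of the members the results turn on, from left to right along the chromosome, 5′ to 3′, with the seed (bases 2 to 8, which pair with target mRNAs) in capitals. No sequence was found for miR-136, miR-299, miR-409-3p and miR-409-5p in the table used.
miR-493: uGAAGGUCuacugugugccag
miR-329: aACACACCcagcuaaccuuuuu
miR-494: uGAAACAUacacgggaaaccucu
miR-487b: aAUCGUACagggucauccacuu
miR-382: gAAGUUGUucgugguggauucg
miR-134: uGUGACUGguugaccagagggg
miR-154: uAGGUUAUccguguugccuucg

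In the genome these are miR-493 (chr6:134314784-134314804), miR-329 (chr6:134547973-134547994), miR-494 (chr6:134550163-134550185), miR-487b (chr6:134562939-134562960), miR-382 (chr6:134569956-134569977), miR-134 (chr6:134570320-134570341) and miR-154 (chr6:134574366-134574387). The 26 sequences carry 26 distinct seeds, so although they are neighbours no pair of these 26 shares one. The seed of miR-329 is also that of rat miR-362-3p, which is not a member. The miR-376 members are close copies: miR-376a differs from miR-376b by 3 of 21 bases and from miR-376c by 4, and miR-376b and miR-376c differ by 5. Cross-hybridisation between such copies cannot be told apart from their own signal.

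Most members were dim in these vessels. To count as above background in a channel, a probe needed 2 or more of its 3 spots at over 2 SD above local background. By this rule 66 of 600 member readings (11%) were above background, against 34.5% of the 4140 readings of the other 207 rat miRNAs. In all 20 channels 14 of the 30 members (46.7%) stayed below it, against 59 of the 207 other probes (28.5%). A further 7 members were above background in a single channel, and none was in all 20, against 19 and 19 of the 207 other probes. The highest count was 11 of 20 channels, for miR-493, followed by 10 each for miR-299 and miR-329, 9 for miR-382, 5 each for miR-127 and miR-154, 4 for miR-487b, 3 for miR-433 and 2 for miR-539. At a background rule of 3 SD, 7 of the 30 members were above background anywhere, against 93 of the 207 other probes.

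The 14 members above background in no channel were miR-134, miR-323, both arms of miR-369, miR-370, miR-376a, miR-376c, miR-377, miR-379, miR-381, both arms of miR-409, miR-485 and miR-543. For these the array gives only an upper bound, and none was shown to be absent. Above background once were miR-136, miR-337, miR-376b, miR-412, miR-431, miR-494 and miR-541. Members above background lay in both stretches. Those of the first stretch were above background in 17.5% of 120 readings and 5 of its 6 members in at least 1 channel. Members of the second were so in 8.5% of 400 readings and 9 of 20 members. Of the 21 readings above background in the first stretch, miR-493 alone gave 11. miR-299, above background in 10 channels, was not placed and is in neither share. Median GC content was 47.7% in the 14 placed members that were above background at least once and 46.5% in the 12 that never were.

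**Figure D1:**
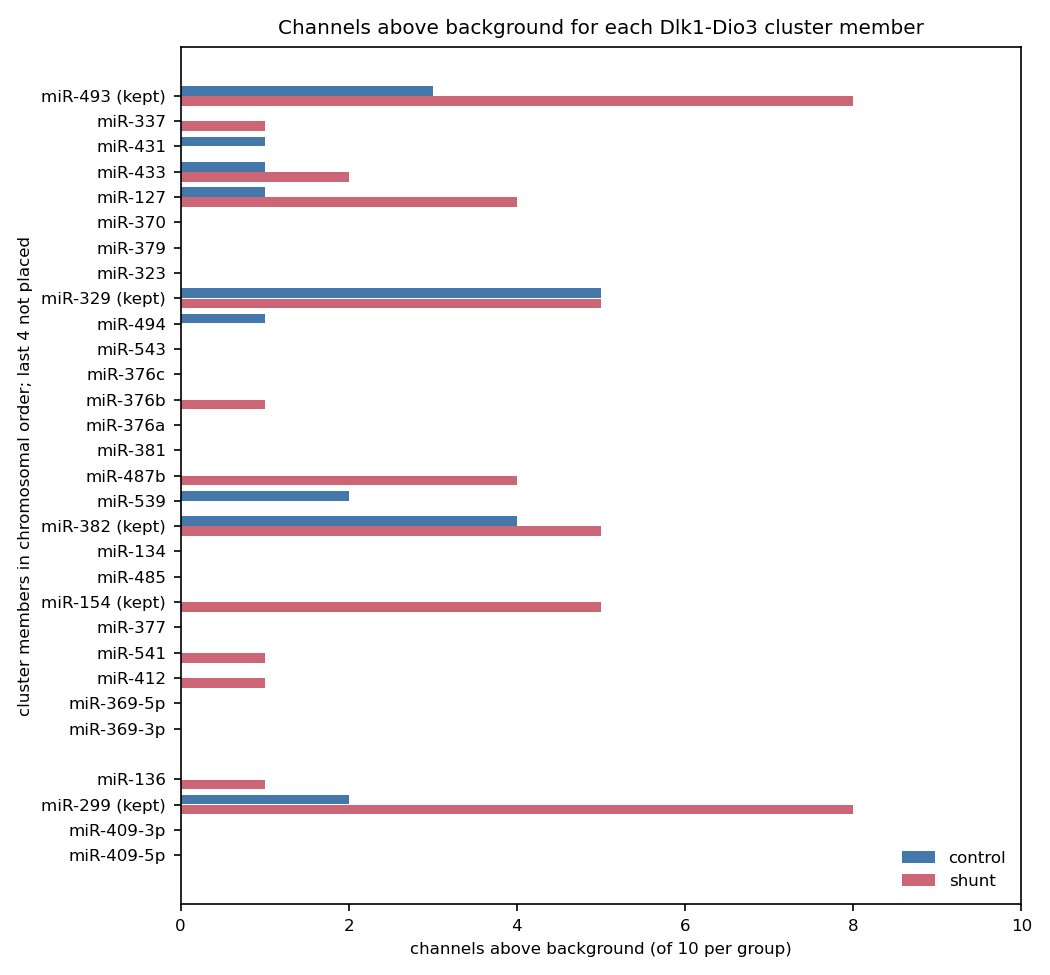
Channels above background out of 10 in control (blue) and 10 in shunt (red) for the 30 cluster members, in chromosomal order from top to bottom, with 4 members that were not placed at the end. Long bars are scattered along the order, and 14 members have no bar.

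Control 2 had no member above background in either dye, although it had 37 and 36 rat miRNAs above background in AF665 and AF546. In the other control RNAs the members above background, as the mean of the 2 channels, numbered 3.5 in control 1, 2.5 in control 3, 3.5 in control 4 and 0.5 in control 5. In shunt RNAs they numbered 3, 5.5, 3.5, 6 and 5 in shunt 1 to shunt 5. In 4 of 5 rats the shunt leg gave the larger number. It was 2 ± 1.66 (SD, n = 5) in control and 4.6 ± 1.29 (SD, n = 5) in shunt.

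All rat miRNAs together also gave higher numbers in shunt, with a mean of 60.5 above background per control RNA and 88.8 per shunt RNA. The share of readings above background was 6.67% in control and 15.3% in shunt among members, and 28.3% and 40.7% among the other rat miRNAs, as counts with no test. Of the 16 members ever above background, 12 were so in more shunt than control channels (75%), 3 in more control channels and 1 equally, against 97 of 148 other rat miRNAs (65.5%) in more shunt channels. No excess in shunt was seen within the 2 mixed arrays. On one of them, control 5 in AF665 and shunt 1 in AF546 each had 1 member. On the other, shunt 5 in AF665 had none and control 1 in AF546 had 5. Over all rat miRNAs, control 5 and shunt 1 had 55 and 54 above background in these channels. Shunt 5 and control 1 had 30 and 84. Within each of these arrays, group and dye cannot be told apart. The dye moved with these numbers too: members were above background in 8% of AF665 and 14.0% of AF546 readings. The other rat miRNAs were so in 31.6% and 37.3%. In shunt 5 all 10 members above background came from AF546. The part of array, dye and signal strength in the higher shunt numbers was not tested.

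The miRNAs that mark the vessel wall were present. miR-126, typical of endothelium, and miR-143, typical of smooth muscle, were above background in all 20 channels, and the mean of the smooth muscle list (miR-143 and miR-145) ranged from 7.36 to 8.12 in control and 7.43 to 8.08 in shunt as log2 intensity. All 4 striated muscle miRNAs (miR-1, miR-133a, miR-133b and miR-206) were also kept, with list means of 6.41 to 6.93 in control and 6.71 to 7.38 in shunt. The difference was above 0 for 4 of 4, where it was for 67 of all 93 kept miRNAs, and passed the test for 0. Of the smooth muscle miRNAs, miR-145 read lower in shunt in 5 of 5 rats (-0.26, SE 0.11, adjusted p = 0.235 by limma) and miR-143 had a difference of 0.046 (SE 0.26). Of the 4 brain and nerve miRNAs on the array, miR-9 and miR-124a were above background in 1 of 20 channels each, while miR-129 and miR-338 were so in 16 and 9. Of the leukocyte miRNAs, miR-150 was above background in 19 of 20 channels, miR-142-3p in 3, miR-223 in 2 and miR-142-5p in 0. Erythroid miR-144 and miR-451 were above background in no channel. The fibroblast miRNAs miR-199a and miR-214 were both kept, with differences of 0.12 (SE 0.072) and 0.30 (SE 0.22) that did not pass the test. In whole tissue, fewer cells of a type and less miRNA per cell cannot be told apart, and the part of muscle or other tissue in the values of the cluster was not tested.

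The comparison of shunt with control asked which miRNAs differ in collaterals under raised shear stress. It was fitted with limma over the 93 rat miRNAs above background in at least 5 of the 10 channels of a group. Among them were 5 members, miR-154, miR-299, miR-329, miR-382 and miR-493, or 16.7% of the members, against 88 of the 207 other rat miRNAs (42.5%). Of these, miR-154, miR-299, miR-382 and miR-493 were kept through the shunt channels alone. None of the 5 passed an adjusted p of 0.05 (limma with Benjamini-Hochberg adjustment), where 1.08% of the 93 miRNAs did, and none had an unadjusted p under 0.05, where 19.4% did. In none of the 5 were the groups without overlap, where 5.38% of the 93 were. The smallest adjusted p among the 5 was 0.501. Levels are log2 intensities, each the mean over the 2 dyes, and are set only against the same probe in other RNAs. A floor of 5.64 set by the background correction compresses changes at these low levels.

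miR-493 sits first in the chromosomal order and was above background in 3 control and 8 shunt channels. Its level was 6.06, 6.05, 6.48, 6.57 and 6.31 in control 1 to control 5 and 6.32, 6.44, 6.38, 6.37 and 6.09 in shunt 1 to shunt 5. Control 1, control 2 and shunt 5 were low, and all shunt RNAs lay within the range of the control RNAs. The low readings of shunt 5 (5.93 in AF665) and control 1 (5.85 in AF546) came from the same array. On their other arrays shunt 5 read 6.25 and control 1 read 6.28. Mean levels were 6.29 ± 0.24 (SD, n = 5) in control and 6.32 ± 0.14 (SD, n = 5) in shunt, a difference of 0.024 (SE 0.12, adjusted p = 0.952 by limma).

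miR-329, one of the miRNAs blocked in the mouse experiments, was above background in 5 control and 5 shunt channels. Its level was 5.96, 5.81, 6.33, 6.77 and 6.76 in control 1 to control 5. In shunt 1 to shunt 5 it was 6.72, 6.32, 6.14, 6.37 and 6.44. Control 4 and control 5 were the highest of all 10 RNAs, control 2 and control 1 the lowest, and all shunt RNAs fell between these. The means were 6.32 ± 0.44 (SD, n = 5) and 6.40 ± 0.21 (SD, n = 5), with a difference of 0.072 (SE 0.20, adjusted p = 0.860 by limma). With an offset of 0 the difference was 0.55 (adjusted p = 0.516). The shunt leg was higher in 2 of 5 rats. In shunt minus control differences of the authors' deposited table the 5 rats ran from -0.71 to 0.73 on the log2 scale for this miRNA.

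The 2 readings of miR-329 in the same RNA did not repeat each other. Control 3 read 6.87 in AF665, with a net intensity of 87.3, and 5.79 in AF546, with a net intensity of 6.33 and no call above background. By contrast the 2 RNAs on one array read alike: over the 10 arrays the AF665 and AF546 levels correlated with r = 0.957 (Spearman 0.976) when paired by array, and with r = 0.345 (Spearman 0.261) when paired by RNA. Without the 2 arrays farthest from the median the value paired by array was 0.971, and paired by RNA -0.014. Neighbouring arrays share an RNA, and the channels of an array share its spots. The readings of miR-329 thus went with the array more closely than with the RNA, and its means over 2 arrays are to be read with that.

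miR-299 had the opposite pattern. Its AF665 and AF546 levels correlated with r = 0.931 (Spearman 0.964) when paired by RNA and with r = 0.094 (Spearman 0.139) when paired by array, and 0.898 and 0.153 without the 2 arrays farthest from the median. The largest gap between the readings of an RNA was 0.13, against 1.09 for miR-329. The other kept members had no settled pattern. With all 10 arrays the value by array was the higher one in 4 of 5 kept members (median 0.793 by array and 0.345 by RNA) and in 35 of 88 other kept rat miRNAs (0.41 and 0.546). Without the 2 farthest arrays it was the higher one in 1 of 5 members, miR-329 (medians 0.174 and 0.206), and in 35 of 88 others (0.331 and 0.494). miR-154, miR-382 and miR-493 turned, miR-493 to 0.483 by array and 0.757 by RNA.

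**Figure D2:**
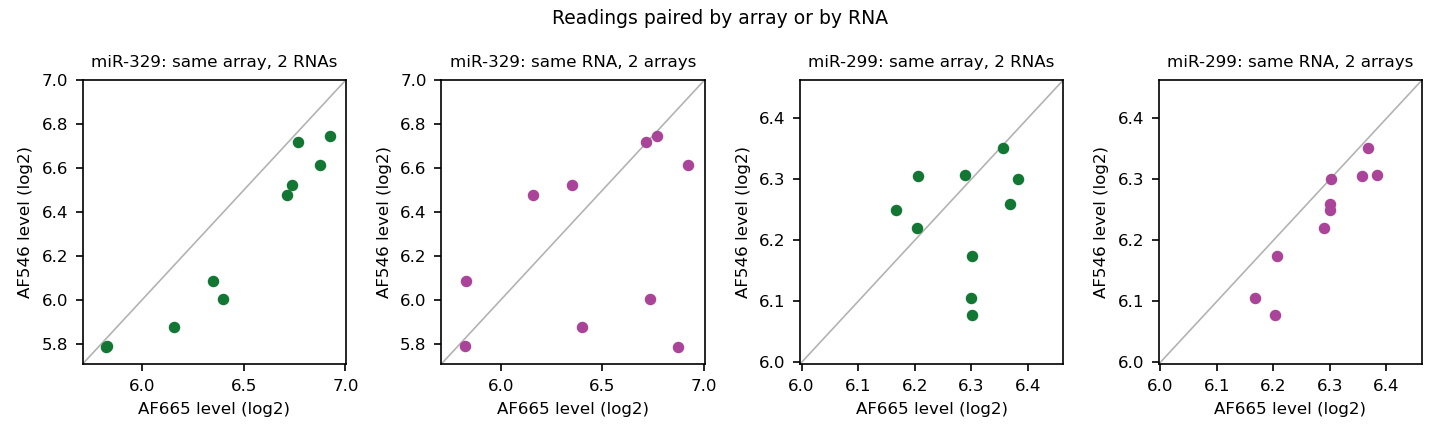
AF665 level against AF546 level (log2 intensity) of miR-329 and miR-299, each of 10 points being an array (green, the 2 RNAs on it) or an RNA (purple, its 2 arrays), with the line of equal levels in grey. miR-329 lies along the line by array (r = 0.957) and scatters by RNA (r = 0.345), while miR-299 does the reverse (r = 0.094 and 0.931).

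The level of miR-299 was 6.14, 6.28, 6.14, 6.25 and 6.34 in control 1 to control 5. In shunt 1 to shunt 5 it was 6.30, 6.19, 6.33, 6.36 and 6.28. Control 1 and control 3 were lowest, control 5 was second only to shunt 4, and the groups overlapped. The means were 6.23 ± 0.090 (SD, n = 5) and 6.29 ± 0.065 (SD, n = 5), and the difference of 0.062 (SE 0.070, adjusted p = 0.564 by limma) was smaller than its standard error. In 3 of 5 rats the shunt leg read higher. Above background were 2 control and 8 shunt channels, the widest gap between groups among the members, and this gap in calls had no counterpart of that size in the levels. The 2 control channels were both of control 4.

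miR-382 was above background in 4 control and 5 shunt channels, 7 of these 9 in AF546. Its level was 6.38, 6.63, 6.44, 6.20 and 6.25 in control 1 to control 5 and 6.27, 6.29, 6.34, 6.23 and 6.32 in shunt 1 to shunt 5. Control 2 was the highest RNA although neither of its channels was above background, and the shunt RNAs lay close together. The means were 6.38 ± 0.17 (SD, n = 5) and 6.29 ± 0.044 (SD, n = 5), with a difference of -0.090 (SE 0.088, adjusted p = 0.501 by limma). With an offset of 0 it was -0.41 (adjusted p = 0.330). The shunt leg was lower in 3 of 5 rats. Within the 2 arrays that held both groups the mean difference had the other sign, 0.099. Shunt 1 read 6.38 against 6.15 in control 5, and shunt 5 read 6.29 against 6.33 in control 1. The authors' deposited table gave a lower shunt value in 5 of 5 rats, from -0.17 to -0.0073 on the log2 scale.

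miR-154 was above background in no control channel and in 5 shunt channels, 1 in each shunt RNA. That contrast in calls was not matched by the levels. They were 6.09, 6.21, 6.05, 6.08 and 6.20 in control 1 to control 5 and 6.22, 6.12, 6.21, 6.09 and 6.12 in shunt 1 to shunt 5, and the groups overlapped. The means were 6.13 ± 0.074 (SD, n = 5) and 6.15 ± 0.060 (SD, n = 5), with a difference of 0.026 (SE 0.066, adjusted p = 0.854 by limma). With each control channel raised, where lower, to that channel's dimmest probe above background, the control mean had an upper bound of 6.26, above the shunt mean, so no fold is given. Within the 2 arrays with both groups the mean difference was -0.052. Shunt 1 read 6.21 against 6.32 in control 5, and shunt 5 read 6.06 against 6.05 in control 1.

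miR-487b, which in rat aorta has been tied to insulin receptor substrate 1, was above background in no control channel and in 4 shunt channels, 2 in each dye, and was not kept. Its level was 6.31, 6.26, 6.17, 6.05 and 6.11 in control 1 to control 5 and 6.37, 6.20, 6.16, 6.19 and 6.27 in shunt 1 to shunt 5. The highest value was shunt 1, the next control 1. The means were 6.18 ± 0.10 (SD, n = 5) and 6.24 ± 0.085 (SD, n = 5). In a fit of all 237 rat miRNAs with no filter the difference was 0.058 (SE 0.058, adjusted p = 0.601 by limma). With no normalization between arrays it became 0.17 with an adjusted p of 0.0488, and centred on the kept rat miRNAs it was -0.068. The AF665 and AF546 levels of miR-487b correlated with r = 0.629 by array and 0.64 by RNA. Without the 2 arrays farthest from the median they did so with 0.755 and 0.4.

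miR-494, another of the miRNAs blocked in mice, had the lowest fitted difference of the 30. It was above background in a single channel, control 3 in AF665 with a net intensity of 40.3, and was not kept. Its level was 5.94, 6.05, 6.29, 6.05 and 6.09 in control 1 to control 5 and 5.94, 6.02, 5.94, 5.85 and 5.76 in shunt 1 to shunt 5. Control 3 stood highest and shunt 4 and shunt 5 lowest, while control 1, shunt 1, shunt 2 and shunt 3 lay in the range of the other group. The means were 6.08 ± 0.13 (SD, n = 5) and 5.90 ± 0.099 (SD, n = 5). The difference was -0.18 (SE 0.069), with an unadjusted p of 0.0261 that did not pass adjustment over the 237 miRNAs (adjusted p = 0.229 by limma). The shunt leg was lower in 4 of 5 rats, and in the authors' deposited table in 5 of 5 (from -0.50 to -0.0061). Since no shunt channel was above background, the shunt level is a bound, and no fold is given because the bound exceeds the control mean. Within the 2 arrays with both groups the mean difference was -0.17, and without control 3 the difference was -0.13. Those 2 arrays went opposite ways. Shunt 1 read 5.87 against 6.28 in control 5, and shunt 5 read 5.85 against 5.79 in control 1, with AF665 the higher dye in both. The AF665 and AF546 levels of miR-494 correlated with r = 0.759 by array and 0.673 by RNA. Without the 2 arrays farthest from the median the values were 0.754 and 0.107, so its means too are to be read with the array in mind.

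**Figure D3:**
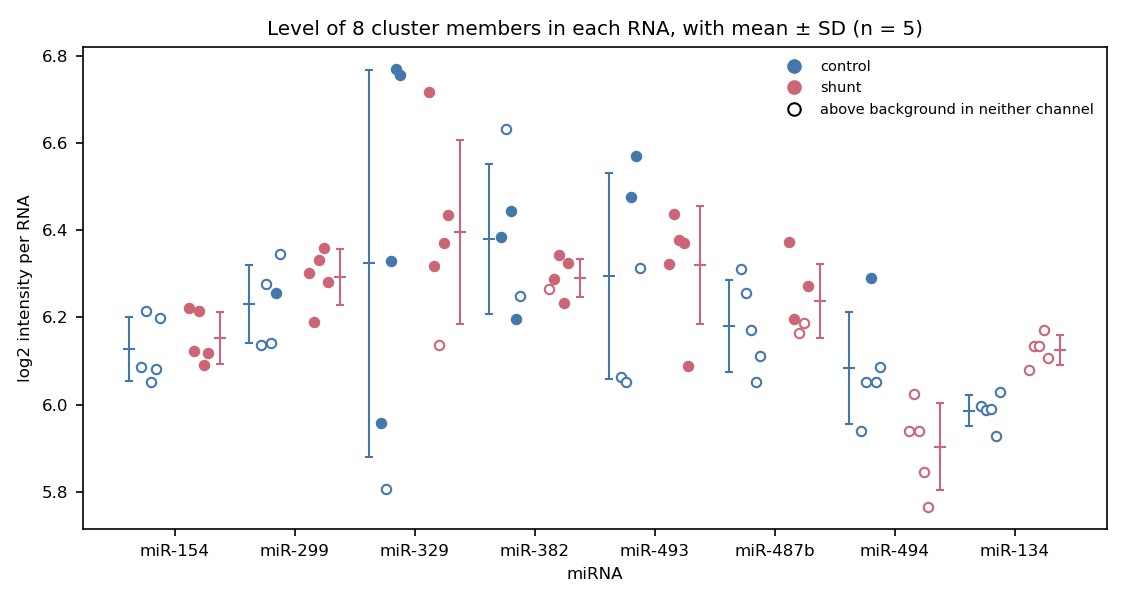
Level (log2 intensity, mean of 2 dyes) of 8 members in each of 5 control (blue) and 5 shunt (red) RNAs, open where neither channel was above background, with mean ± SD bars beside them. The groups overlap for each miRNA but miR-134, whose points are all open.

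With no filter, 20 of the 30 members had a fitted difference above 0 and 10 below, with a median of 0.022, and the median over all 237 rat miRNAs was 0.020. The differences ran from -0.18 (miR-494) to 0.14 (miR-134). One member passed an adjusted p of 0.05, where 1.27% of the 237 did, and 3 had an unadjusted p under 0.05 (miR-134, miR-541 and miR-494), where 17.7% did. The member that passed was miR-134, which in rat neurons limits the growth of dendritic spines through Limk1. Its level was 5.997, 5.988, 5.989, 5.929 and 6.028 in control 1 to control 5 and 6.08, 6.13, 6.14, 6.17 and 6.11 in shunt 1 to shunt 5. The groups did not overlap, as was the case for 2.95% of the rat miRNAs, and the shunt leg was higher in 5 of 5 rats. The difference was 0.14 (SE 0.026, adjusted p = 0.0361 by limma).

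Both groups of miR-134 were below background. None of its 20 channels was above background, its highest net intensity was 42.0, and so no fold is given. With rat as a replicate block the adjusted p was 0.3001, with the AF665 readings alone 0.258 and with the AF546 readings alone 0.0248. Leaving out 1 RNA at a time, 3 of 10 fits kept the adjusted p under 0.05 (range 0.0243 to 0.108), those without control 4, shunt 1 or shunt 5. Centred on the kept rat miRNAs the difference was 0.014 (adjusted p = 0.872). The AF665 and AF546 levels of miR-134 correlated with r = 0.866 when paired by array and 0.724 when paired by RNA. Without the 2 arrays farthest from the median these values were 0.951 and 0.725. The 2 arrays with both groups went opposite ways. Shunt 1 read 6.05 against 6.13 in control 5, and shunt 5 read 6.10 against 5.94 in control 1. The part of array in the group difference was not tested. miR-541 had a difference of 0.12 (SE 0.036, adjusted p = 0.139 by limma), higher in 4 of 5 rats, with 1 channel above background.

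The median difference of the kept members lay below that of all kept rat miRNAs. Over all 93 kept rat miRNAs the median difference was 0.12, with 67 above 0 and 26 below. Over the 5 kept members the median was 0.026, with 4 above 0 and 1 below. With no filter the medians were 0.022 over the 30 members and 0.020 over all 237 rat miRNAs. The floor compresses changes of dim probes, so the kept medians do not compare like with like, and the part of signal strength was not tested. Centring each RNA on its kept rat miRNAs lowered the difference of every member by the same 0.13, so all signs given here hold for the uncentred scale. For comparison, the median over the 73 rat miRNAs above background in no channel was 0.0012 before centring.

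**Figure D4:**
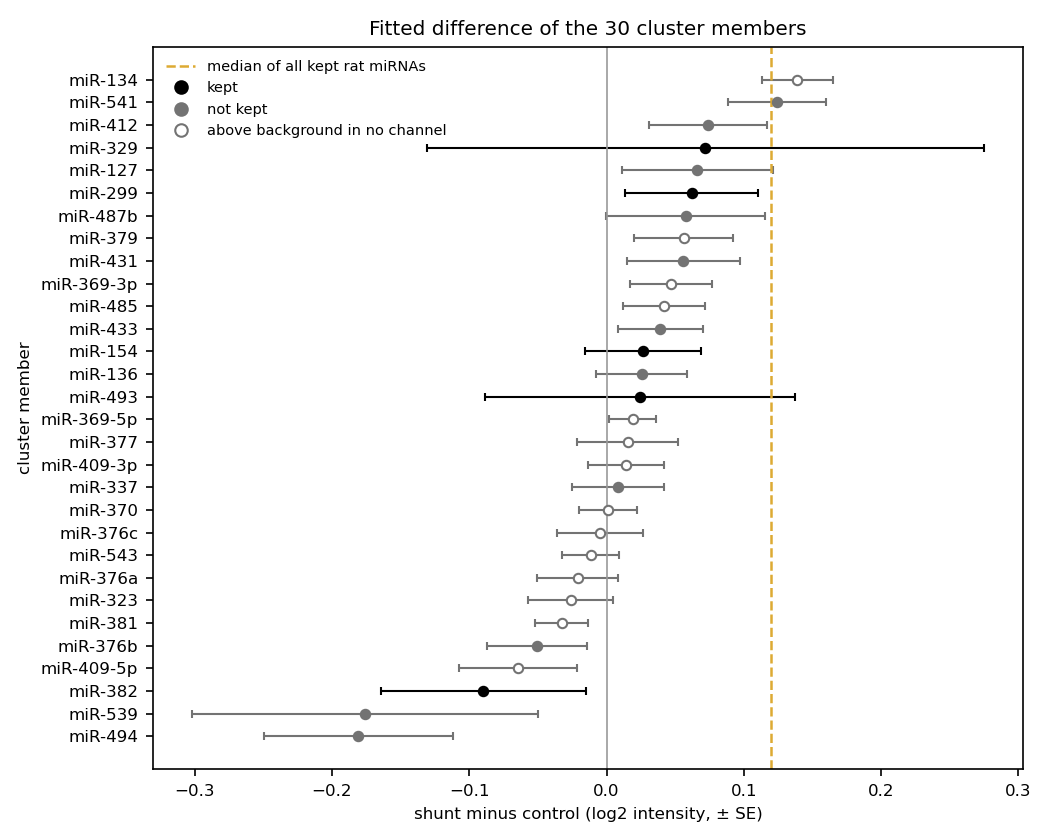
Fitted shunt minus control difference (log2 intensity, with standard error, in the fit of all rat miRNAs) of the 30 members in order of size, black where kept, open where above background in no channel. The dashed line is the median of the kept rat miRNAs at 0.12, and all members but miR-134 and miR-541 lie to its left.

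The kept members did not vary as one block over the 10 RNAs. The highest correlations were 0.586 between miR-154 and miR-299 (Spearman 0.527) and 0.581 between miR-329 and miR-493 (Spearman 0.406), while miR-329 and miR-382 ran opposite (-0.805, Spearman -0.818). Of 10 pairs these are descriptions with no test, over RNAs that share arrays. The rat miRNAs most like the mean of the 5 kept members were miR-343 (r = 0.835), miR-106b (0.767) and miR-214 (0.755). Among 88 miRNAs r ranged from -0.892 to 0.835, with a median of 0.132. The mean was not scaled, and miR-329 had the largest SD of the 5 in both groups (0.44 in control, 0.21 in shunt). This ranking may thus follow miR-329 more than the other kept members.

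The remaining members can be given together. miR-127, miR-431 and miR-433 are transcribed opposite Rtl1, and miR-127 is known in mice to cleave the Rtl1 transcript. miR-127 was above background in 1 control and 4 shunt channels, all in AF546, with means of 6.14 ± 0.11 and 6.21 ± 0.064 (SD, n = 5) and a difference of 0.066 (SE 0.055, adjusted p = 0.508 by limma). miR-539 was above background in 2 control channels and no shunt channel, control 1 in AF665 and control 3 in AF546. Its means were 6.20 ± 0.28 and 6.02 ± 0.12 (SD, n = 5), a difference of -0.18 (SE 0.13, adjusted p = 0.461 by limma). In control 1, control 2 and control 3 it lay between 6.37 and 6.46, above all other RNAs, whose highest value was 6.20. Their 2 readings differed: control 3 read 6.90 in AF546 and 5.85 in AF665, control 1 6.08 and 6.68. Control 2 read 6.24 and 6.67, with neither channel above background. The AF665 readings of control 1 and control 2 shared their arrays with the AF546 readings of control 2 and control 3. Other members outside the kept set had differences from -0.064 (miR-409-5p) to 0.074 (miR-412).

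Other miRNAs of the domain lay outside the rule. The star forms miR-376a*, miR-376b* and miR-382* and miR-300 were above background in no channel. miR-341 was above background in 4 control and 4 shunt channels, all 8 in AF665, and its difference was -0.014. In the authors' deposited table none of the 150 pairs of member and rat had a p-value under 0.05, against 5.57% of the 1185 pairs over all rat miRNAs.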

How the data were processed

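The members and miRNA lists were chosen with earlier results of these data known. The authors' scanner files hold raw foreground and background intensity of 3321 spots at 635 nm (AF665) and 532 nm (AF546). The authors' own value table is on a log2 scale with column medians from -0.126 to 0.0893, and its offset and centring are unknown here. The authors' table of comparisons has, for each rat, a signed fold, taken as a score, and a p-value, with the test unstated. Its 10 rank columns were not used.

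Mean foreground and median background were corrected by normexp (offset 50), then loess (span 0.3, 4 iterations) and Aquantile, with limma 3.58.1 and statmod 1.5.0 under R 4.3.3. Spots, then the 2 dyes of an RNA, were averaged. Rat miRNAs above background in a share of 0.5 of a group's channels were kept and fitted with lmFit and eBayes, two-sided, with Benjamini-Hochberg adjustment, without a block for rat. The replicates are biological, per the labels, but neighbouring RNAs share arrays, so p-values may be too small; the number of arrays limits the precision. Kept members and the miRNAs studied in mice were described in full, others in ranges, and members outside that rule named after their values were seen (miR-127, miR-134, miR-539, miR-541). The steps were run on simulated data with known changes placed on kept rat miRNAs. No deviation shared by the 2 RNAs of an array was simulated, so that run did not check array dependence, nor the dim members on their own. RNAs of the same rat are paired by the sample names; correlations of their deviations were -0.418, 0.00519, -0.189, -0.0468 and 0.337 for rats 27, 28, 30, 31 and 32.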

Additional observations from a re-analysis of the deposited data

Results flagged for a closer look

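miR-136 had a level of 5.99 in shunt 5, apart from the other 4 shunt RNAs at 5.90 ± 0.0066 (SD), its gap to the nearest being 0.855 of the range of all 5. It is the RNA and dye (AF546) of the only channel in which miR-136 was above background. miR-409-3p had a level of 5.79 in control 4, below the other 4 control RNAs at 5.88 ± 0.0071 (SD), a gap of 0.845 of the range of all 5, and was above background in no channel. In 72 groups examined 2 were set apart in this way (2.78%), where chance gives about 5%.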

How the results depend on the processing

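No kept member passed the threshold under any alternative that kept it. The filters in all channels of a group and at 3 SD kept no member, so they give no member value. The number of members called was 0 except with no filter on dim probes (1, miR-134). The rat as a replicate block left 0 members called among the kept ones and took the single call among all rat miRNAs to 0.

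The count of rat miRNAs called was 1 and moved with most settings: 0 with median centring, no between-array normalization, the stricter filter, the replicate block, the separate-channel model, the deposited value table, AF665 only or without both control 1 and control 3; 2 with offset 0, median foreground, quantile, the 3 SD rule or AF546 only; 3 with no background correction, no filter or ratios only; 4 when centred or with a trended robust prior; 18 unadjusted. Without 1 RNA it ranged from 0 to 25 (25 without control 4, 3 without shunt 5, 2 without control 3, 0 without any of the others).

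The median over kept members was 0.026 and became -0.099 when centred, -0.020 with the value table and -0.012 without both control 1 and control 3. Without 1 RNA it ran from -0.027 to 0.068, below 0 without control 1 or control 2. Signs turned as follows. When centred: miR-154 -0.099, miR-299 -0.063, miR-329 -0.054, miR-493 -0.10 and miR-487b -0.068. Value table: miR-154 -0.015, miR-329 -0.063 and miR-493 -0.020. Ratios only: miR-154 -0.066, miR-382 0.15 and miR-487b -0.042. Within the 2 mixed arrays: miR-154 -0.052 and miR-382 0.099. Others: miR-154 with offset 0 (-0.053), miR-382 with no between-array normalization (0.044), miR-493 with AF665 only (-0.064), and without both control 1 and control 3 miR-154 (-0.012) and miR-329 (-0.048). Without 1 RNA, miR-329 ran from -0.058 to 0.18 and miR-493 from -0.036 to 0.093. With offset 0, miR-329 was 0.55, miR-382 -0.41, miR-493 0.14 and miR-494 -0.80, and no kept member was called. miR-494 stayed negative in all 32 alternatives (-0.80 to -0.095). These refit the same RNAs, and those that change only the filter, block or prior leave its difference at -0.18, so the stable sign is no independent support. The settings by dye and without control 1 and control 3 were added after seeing the data, since the 2 readings of those RNAs did not agree (r = -0.198 and -0.028 over the kept miRNAs). The causes were not tested. Low signal over background limits all member values.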
